A study of Mus musculus with 8 samples.

Results

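The genes described here encode synaptic adhesion molecules, proteins of the cell surface that hold the 2 sides of a synapse together. They were chosen by symbol and comprise the contactins (Cntn1 to Cntn6), the contactin-associated proteins (Cntnap), the Slitrk and Lrrtm leucine-rich repeat proteins, the teneurins (Tenm), the neuroligins (Nlgn), the neurexins (Nrxn), the Lrfn proteins and the Flrt proteins. In all, 41 of the 23420 gene symbols in the count tables matched. The libraries came from mouse embryonic fibroblasts of a C57BL6/N background in which the adenoviral oncoprotein E1A and the activated Ras protein HRasV12 were expressed, and this holds for both genotypes. Of the 8 libraries, 4 were wild-type and 4 were from Neat1-/- cells (Neat1 null), which lack a long noncoding RNA that forms the scaffold of nuclear paraspeckles. No time point or further treatment is given, and the labels name no embryo or culture of origin, so the tests measure only the spread between these libraries, which may be technical. By sex-linked genes (below), Neat1 null library 3 was female and Neat1 null libraries 1, 2 and 4 were male, so these were not all repeats of 1 embryo.

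Most of what is known of these molecules comes from neurons. Presynaptic neurexins bind postsynaptic neuroligins and Lrrtm proteins across the synaptic cleft, Slitrk proteins and some Lrfn proteins bind receptor phosphatases of the LAR family, and teneurins and Flrt proteins bind latrophilins. Contactins are attached to the membrane by a lipid anchor and pair with contactin-associated proteins at the junctions between axons and myelinating glia. Several of these genes are also expressed outside the nervous system, where Flrt proteins act in embryonic cell migration.

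The family was proposed because Cntn1 and Slitrk4 lay among the largest falls of the comparison of Neat1 null with wild-type libraries. All values of that comparison below are therefore a description of these libraries. No p-value is given for a member, and the word called means only that the gene passed an adjusted p of 0.05 in edgeR's quasi-likelihood test over all 13316 genes tested.

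Counts assigned to genes ranged from 31651625 to 37069334 in wild-type and from 19651035 to 38950207 in the Neat1 null libraries. Neat1 itself had 138, 588, 753 and 1319 CPM (counts per 1e6 counts after scaling of the library sizes) in wild-type libraries 1 to 4 and 6.91, 11.3, 7.90 and 6.12 CPM in Neat1 null libraries 1 to 4, which matches the labels. Neat1 null libraries 1 and 3 stood apart. Ribosomal protein genes took 25.9% and 15.3% of their counts, against 6.06% to 9.32% in the other 6 libraries, and longer genes were under-represented in them. Of the labelled fibroblasts' markers, Vim (1232 to 3262 CPM over all libraries) and Fn1 (431 to 1389 CPM) were abundant. Pdgfra had 40.9 to 148 CPM in wild-type and 3.91 to 10.9 CPM in Neat1 null libraries. Over all libraries Fbln1 had 27.2 to 129 CPM, Pdgfrb 18.2 to 40.9 CPM and Col1a2 0.740 to 77.1 CPM. Lower markers were Col1a1 (at most 12.4 CPM), Col3a1 (at most 7.81 CPM), Dcn (at most 0.898 CPM) and Lum (at most 0.0265 CPM).

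Many of the synaptic adhesion genes were at or near the limit of detection, and a subset was lower without Neat1. Of the 41 genes, 20 had enough counts to be tested, and 10 of these 20 (50%) were called lower in Neat1 null libraries. Over all genes tested, 7.72% were called lower, and nothing is read from the difference because the family was chosen on this comparison. None of the 20 was called higher (0 members, against 9.97% of all genes tested); with upper-quartile scaling the shares of all genes called were 10.7% lower and 7.78% higher. Fitted log2 fold changes (Neat1 null minus wild-type) were below 0 for 18 of the 20, and for 52.2% of all genes tested. Their median was -1.84, beside -0.06 for all genes tested. The 10 called genes were Cntn1, Slitrk4, Tenm1, Nlgn1, Cntnap2, Slitrk3, Tenm4, Flrt1, Cntnap1 and Nlgn2. In 8 of the 20 genes (40%) the highest Neat1 null value was under the lowest wild-type value, which was the case for 11% of all genes tested. The test filter asks for counts in at least 4 libraries, and 11 of the 20 genes had fewer than 4 Neat1 null libraries above its level. Those genes entered the test mainly through their wild-type counts, which favours a fall. They include every called gene except Nlgn2 and Cntnap1, which were above the level in all 4 Neat1 null libraries. Slitrk4, Tenm1, Nlgn1 and Cntnap2 were above it in 0 of them. In RNA from whole cultures, fewer expressing cells and less RNA per cell cannot be told apart.

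**Figure D1:**
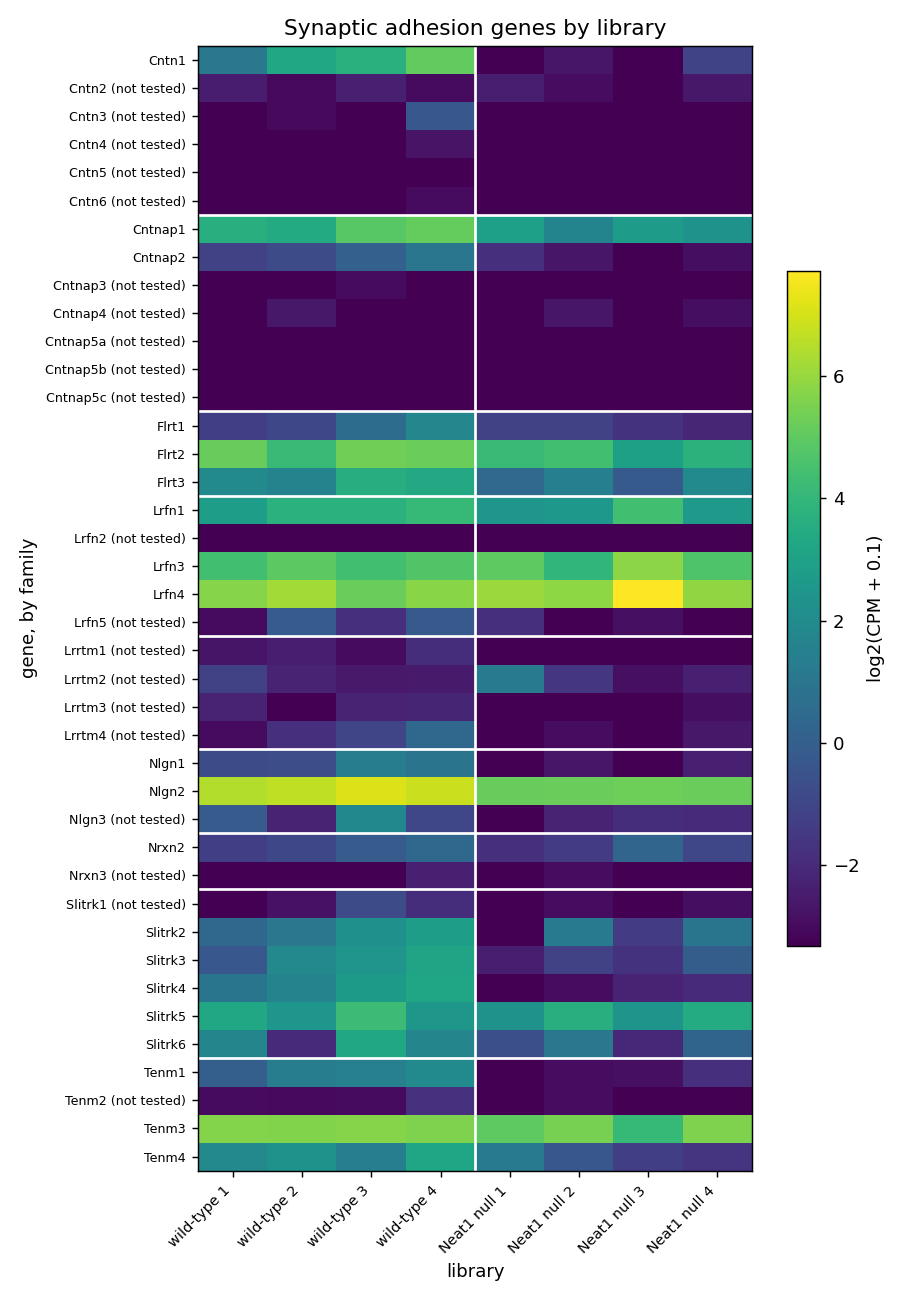
Heat map of 40 of the 41 genes (rows, grouped by family) in the 8 libraries (columns); colour gives log2(CPM + 0.1), and genes marked as not tested had too few counts. Nlgn2, Lrfn4 and Tenm3 are bright in every library, most contactins and Cntnap genes are dark throughout, and Cntn1, Slitrk4 and Tenm1 are bright in the wild-type columns and dark in the Neat1 null columns.

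The neuroligins held both the most abundant called gene and one of the steepest falls. Nlgn2, the neuroligin of inhibitory synapses, lies on chromosome 11 (GRCm38, 69823122 to 69837784). It had 87.1, 100.4, 143 and 115 CPM in wild-type libraries 1 to 4 and 35.6, 36.4, 38.8 and 36.3 CPM in Neat1 null libraries 1 to 4. The Neat1 null libraries were close to each other (36.8 ± 1.40 CPM, mean ± SD, n = 4) and all below the wild-type libraries (111 ± 23.8 CPM, n = 4). The log2 fold change was -1.60 (SE 0.32). Nlgn1, the neuroligin of excitatory synapses, had 0.477, 0.508, 2.42 and 1.801 CPM in wild-type and 0, 0.0586, 0 and 0.0941 CPM in Neat1 null libraries. These Neat1 null values rest on 5 reads in all, and the groups did not overlap (log2 fold change -4.74, SE 0.93). A count of 0 allows up to 0.269 CPM in Neat1 null library 1, the shallowest library, and up to 0.106 CPM in Neat1 null library 3, where 3 counts are taken as the limit for counting error alone. Nlgn1 is encoded on chromosome 3 (25426215 to 26332460), and 9.16% of its exon sequence overlaps an antisense gene, A830092H15Rik. The strand setting of the counting is not given in the sources used here, so some of its reads may belong to that gene. Nlgn3, an X-linked neuroligin, was too low to be tested, with 30, 5, 147 and 17 counts in wild-type and 0, 4, 5 and 5 in the Neat1 null libraries, and 41.2% of its exon sequence is shared with Gm21986 on the same strand.

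The neurexins and Lrrtm proteins, the binding partners of the neuroligins and their counterparts, were close to the limit of detection. Nrxn2 was the only tested gene of these families, with 0.318, 0.420, 0.792 and 1.22 CPM in wild-type and 0.180, 0.293, 1.13 and 0.408 CPM in Neat1 null libraries. The groups overlapped, and the log2 fold change was -0.41 (SE 0.68). Nrxn3 had 4 counts in wild-type and 1 in the Neat1 null libraries. Among the Lrrtm genes, Lrrtm4 had 1, 8, 17 and 49 counts in wild-type and 0, 1, 0 and 2 in the Neat1 null libraries. Lrrtm1 had 14 counts in wild-type and 0 in the Neat1 null libraries, and Lrrtm3 had 14 and 1. With the libraries of each genotype pooled Lrrtm1 was at least 2.95-fold lower, a bound that leaves out the error of the wild-type count. Lrrtm2 went the other way, with 13, 5, 3 and 3 counts in wild-type and 24, 8, 1 and 3 in the Neat1 null libraries, most of the latter in library 1.

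Cntn1, a contactin of axons and of the junctions they form with myelinating glia, showed the largest fall among the tested members. It lies on chromosome 15 (92051165 to 92341967) and had 2.04, 9.78, 12.7 and 33.2 CPM in wild-type and 0, 0.0586, 0 and 0.376 CPM in Neat1 null libraries. The wild-type libraries differed by 16.3-fold among themselves, and still the lowest of them lay above the highest Neat1 null library. On the fitted scale the change was -6.81 (SE 1.09). Cntnap1, the partner of Cntn1 at these junctions, fell less: wild-type libraries had 12.003, 10.8, 28.4 and 35.0 CPM and Neat1 null libraries had 7.54, 3.08, 6.70 and 4.92 CPM, with no overlap (log2 fold change -1.96, SE 0.47). Cntnap2, which helps to cluster potassium channels along axons and is one of the longest mouse genes (chromosome 6, 45059357 to 47304213), had 0.344, 0.486, 0.955 and 1.92 CPM in wild-type and 0.180, 0.0586, 0 and 0.0314 CPM in Neat1 null libraries, again without overlap (log2 fold change -4.07, SE 0.93). So 3 of the 3 tested genes of these families were called lower. The other contactins were scarcely transcribed. Cntn3 had 30 counts over the wild-type libraries, 29 of them in library 4, and none in Neat1 null libraries. With the libraries of each genotype pooled this was at least 6.32-fold lower. That bound rests on wild-type library 4 alone and does not cover the spread between libraries. Cntn2 had 9 and 4 counts, Cntn4 had 2 and 0, and Cntn6 had 1 and 0. Cntnap4 had 3 counts in each genotype and Cntnap3 had 1 count in all. Cntn5, Cntnap5a, Cntnap5b, Cntnap5c and, among the Lrfn genes, Lrfn2 had no read in any library.

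**Figure D2:**
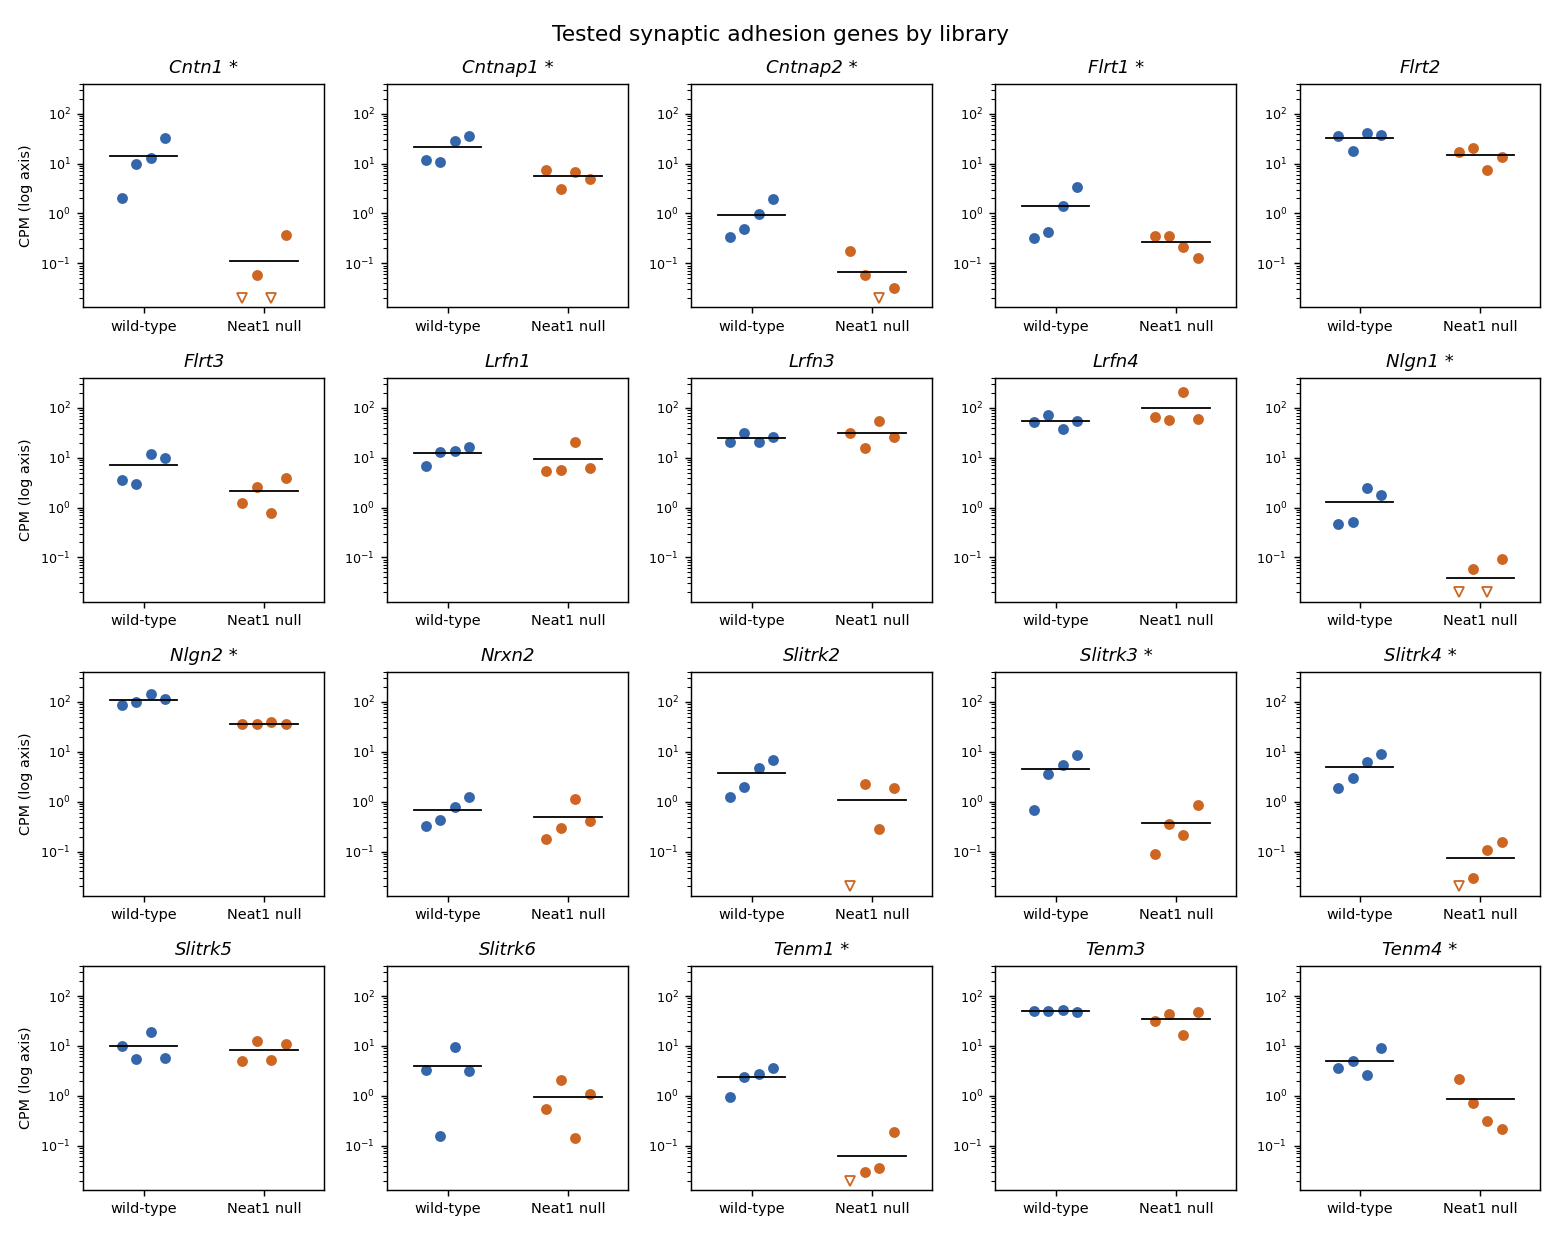
CPM of the 20 tested genes on a log axis, 1 point per library (wild-type blue, Neat1 null orange, libraries 1 to 4 from left to right in each group); lines are group means, open triangles mark libraries at 0 counts, and an asterisk marks a gene called lower. The Cntn1, Slitrk4, Tenm1 and Nlgn1 points form separate groups, whereas those of Slitrk5, Nrxn2 and the Lrfn genes overlap.

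The Slitrk genes, whose products are transmembrane proteins with leucine-rich repeats that induce synapse formation, held 2 called and 3 uncalled tested members. Slitrk4 (X chromosome, 64264885 to 64276996) had 1.88, 2.94, 6.34 and 8.98 CPM in wild-type and 0, 0.0293, 0.106 and 0.157 CPM in Neat1 null libraries, with no overlap and a log2 fold change of -5.88 (SE 0.82). Slitrk3, which acts at inhibitory synapses, had 0.689, 3.62, 5.36 and 8.66 CPM in wild-type and 0.0898, 0.352, 0.212 and 0.847 CPM in Neat1 null libraries. It was called (log2 fold change -3.52, SE 0.79), but wild-type library 1 lay below Neat1 null library 4. Slitrk2, which lies on the X chromosome as Slitrk4 does, overlapped between the groups, with 1.22, 1.97, 4.64 and 6.93 CPM in wild-type and 0, 2.23, 0.282 and 1.85 CPM in Neat1 null libraries, and was not called (-1.71, SE 0.87). Here Neat1 null libraries 2 and 4 were within the wild-type range and libraries 1 and 3 were below it. Slitrk5, the Slitrk gene with the highest level per length, had 9.86, 5.54, 18.8 and 5.60 CPM in wild-type and 4.94, 12.3, 5.22 and 10.9 CPM in Neat1 null libraries. Its log2 fold change of -0.25 (SE 0.49) was smaller than its error. Slitrk6 ranged from 0.155 to 9.34 CPM in wild-type and from 0.141 to 2.05 CPM in Neat1 null libraries and was not called. Slitrk1 had 30 counts in wild-type and 2 in the Neat1 null libraries and was not tested.

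Of the teneurins, large transmembrane proteins that bind latrophilins, the most abundant was the steadiest. Tenm3 had 50.6, 49.8, 52.7 and 47.8 CPM in wild-type and 31.5, 43.9, 16.8 and 48.2 CPM in Neat1 null libraries. Neat1 null libraries 1 and 3 were far below the wild-type range and library 2 slightly below it, and the log2 fold change of -0.52 (SE 0.36) was not called. Tenm1 (X chromosome, 42527866 to 43429126) by contrast had 0.927, 2.43, 2.68 and 3.65 CPM in wild-type and 0, 0.0293, 0.0353 and 0.188 CPM in Neat1 null libraries, without overlap (log2 fold change -4.998, SE 0.82). It shares 8.25% of its exon sequence with Sh2d1a on the opposite strand. Tenm4 had 3.55, 4.97, 2.56 and 9.17 CPM in wild-type and 2.15, 0.704, 0.317 and 0.220 CPM in Neat1 null libraries. The groups did not overlap but nearly met, at 2.56 and 2.15 CPM, and the log2 fold change was -2.66 (SE 0.72). Tenm2 had 11 counts in wild-type and 1 in the Neat1 null libraries.

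Flrt proteins, which bind latrophilins and Unc5 receptors, were led by Flrt2, with 36.0, 17.7, 40.6 and 37.5 CPM in wild-type and 17.4, 20.8, 7.58 and 13.7 CPM in Neat1 null libraries. Wild-type library 2 lay below Neat1 null library 2, and the gene was not called (log2 fold change -1.15, SE 0.40). Flrt1 was called with the smallest margin of the 10 genes, at 0.318, 0.420, 1.40 and 3.41 CPM in wild-type and 0.359, 0.352, 0.212 and 0.125 CPM in Neat1 null libraries (log2 fold change -2.43, SE 0.80). Wild-type libraries 1 and 2 were level with the Neat1 null libraries, so this change rests on wild-type libraries 3 and 4, and without library 4 the log2 fold change was -1.47. Flrt3, which had 2.98 to 11.6 CPM in wild-type and 0.776 to 3.83 CPM in Neat1 null libraries, was not called (-1.72, SE 0.61).

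The Lrfn genes, which encode leucine-rich repeat and fibronectin type III proteins of the postsynaptic side, held the only tested members with a positive fold change, Lrfn4 and Lrfn3, and that of Lrfn3 turned negative when Neat1 null library 3 (-0.032) or libraries 1 and 3 of that genotype (-0.30) were omitted and with the length and GC correction (-0.11). Lrfn4 had 52.5, 72.0, 36.7 and 53.9 CPM in wild-type and 66.3, 57.1, 211 and 58.6 CPM in Neat1 null libraries. Library 3 stood well above the other Neat1 null libraries, the groups overlapped, and the log2 fold change of 0.87 (SE 0.45) was not called and was 0.18 without that library. Lrfn3 ranged from 20.6 to 31.0 CPM in wild-type and from 15.3 to 54.9 CPM in Neat1 null libraries (log2 fold change 0.36, SE 0.39). Lrfn1 ranged from 6.92 to 16.6 CPM and from 5.48 to 20.5 CPM (-0.40, SE 0.48). For each of these 3 genes the top value of the 8 libraries was in Neat1 null library 3. Lrfn5 had 1, 37, 8 and 31 counts in wild-type and 2, 0, 1 and 0 in the Neat1 null libraries and was not tested.

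**Figure D3:**
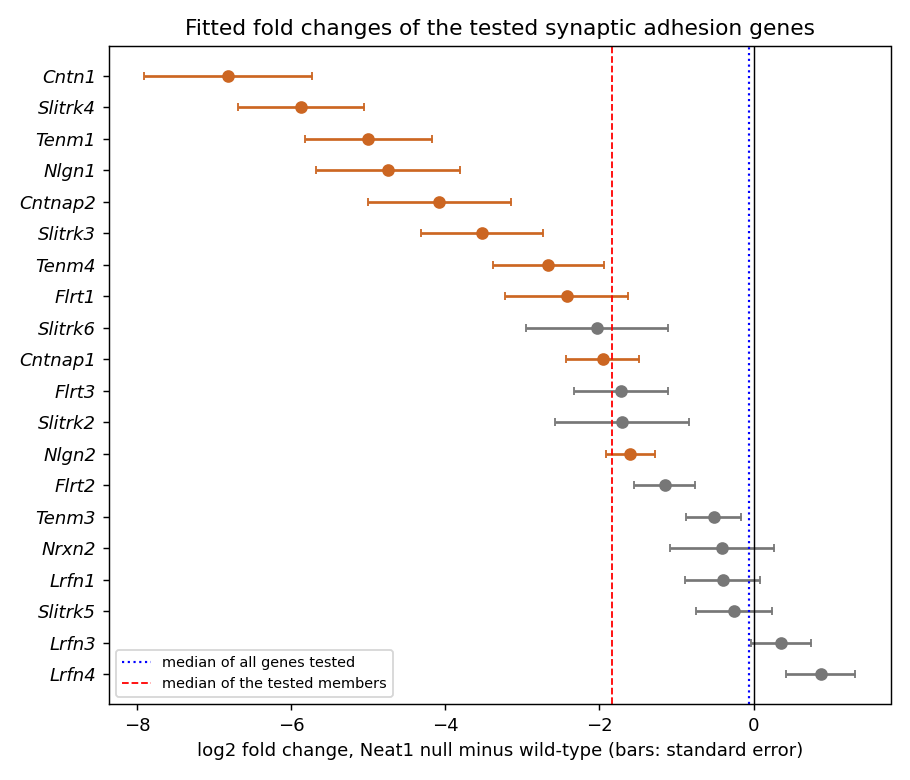
Fitted log2 fold changes of the 20 tested genes with their standard errors; orange genes were called lower and grey genes were not called. The members reach from -6.81 for Cntn1 to 0.87 for Lrfn4, with a median of -1.84 against -0.06 for all genes tested.

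Levels can be compared between genes only per length, so mean CPM was divided by the exon length in kilobases. In wild-type libraries Nlgn2 was highest (19.2 ± 4.11 CPM per kb), followed by Lrfn4 (15.98 ± 4.29) and Lrfn3 (8.58 ± 1.72), and the first 2 of these lay within their spread of each other. Tenm3 (4.91 ± 0.198), Flrt2 (4.27 ± 1.34), Cntnap1 (3.67 ± 2.05) and Lrfn1 (3.20 ± 1.04) formed a middle tier whose neighbours did not differ beyond their SD. Cntn1 (1.53 ± 1.41) and Slitrk4 (0.576 ± 0.371) were lower, and Nrxn2 (0.0497 ± 0.0295), Cntnap2 (0.0904 ± 0.0696) and Nlgn1 (0.0970 ± 0.0722) were the lowest tested genes. Among Neat1 null libraries Lrfn4 came first (29.2 ± 22.4 CPM per kb), then Lrfn3 (11.0 ± 5.82) and Nlgn2 (6.35 ± 0.243). Cntn1 fell to 0.0115 ± 0.0191 CPM per kb and Slitrk4 to 0.00835 ± 0.00818, below Nrxn2 at 0.0364 ± 0.0310, which both had exceeded in wild-type libraries. The Neat1 null values rest on 14 reads for Cntn1 (12 of them in library 4) and 9 for Slitrk4, so these ranks are uncertain. Reads were as few for Tenm1 (8) and Cntnap2 (5), and the size of the fall is uncertain for all of these genes.

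**Figure D4:**
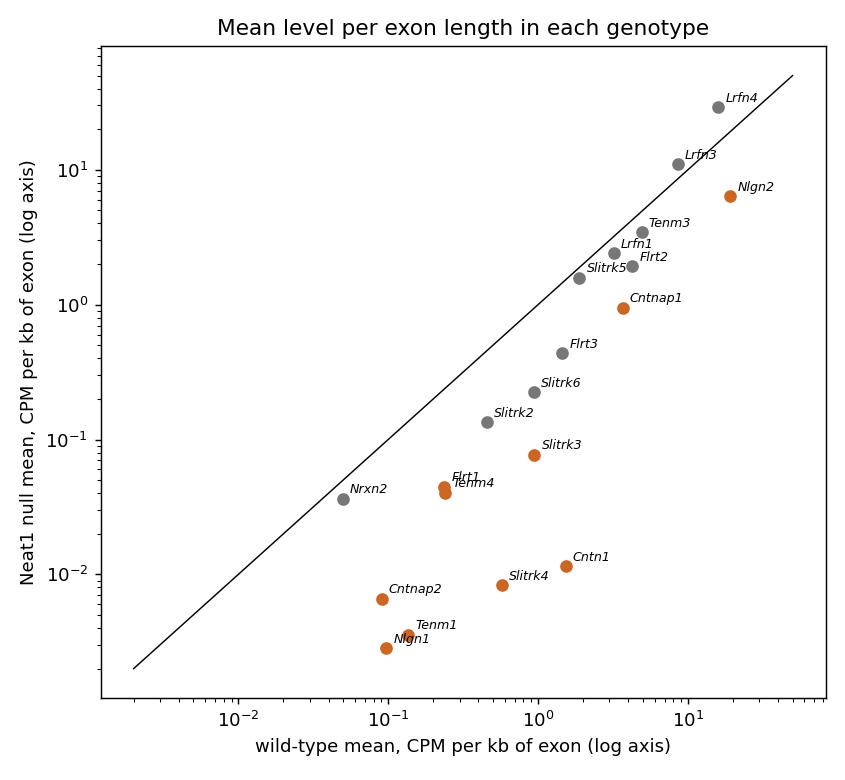
Mean CPM per kb of exon in wild-type (horizontal, log axis) and Neat1 null libraries (vertical, log axis), 1 point per tested gene (n = 4 libraries per mean; spread in the text), with the line of equal levels; orange genes were called lower. The called genes lie below the line, Cntn1, Slitrk4, Tenm1 and Nlgn1 farthest, and Lrfn3 and Lrfn4 lie above it.

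The wild-type libraries were themselves unequal. Of the 20 tested genes, 11 had their highest wild-type value in library 4 and 7 in library 3, and 12 had their lowest in library 1. Genes with at least 10 counts numbered 22, 20, 24 and 25 of the 41 in wild-type libraries 1 to 4 and 11, 15, 10 and 14 in the Neat1 null libraries 1 to 4. These numbers are not scaled for library size, which lowers them in the Neat1 null libraries. There 3 counts equal 0.0880 to 0.269 CPM, against 0.0662 to 0.0795 CPM in wild-type libraries. The same limit holds for the raw counts of untested genes given above. No library of either genotype lacked all members: the summed level of the 41 genes was 296 to 436 CPM in wild-type and 204 to 365 CPM in Neat1 null libraries, with most of it from Nlgn2, Lrfn4, Tenm3, Flrt2 and Lrfn3.

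RefSeq promoter windows (GRCm38.p6, 250 bases before to 50 after a start) were matched by symbol for 29 of the 41 genes and 15 of the 20 tested genes, the latter with 21 windows. Windows are shown for the most strongly lowered gene with an entry (Cntn1, the first of 3 listed), for Nlgn1 (the second of 2 listed, shown because it holds motif matches, whereas the first holds none), for Nlgn2 and Tenm1 as called genes at the extremes of CpG content, and for Lrfn4 as the gene with the highest fold change. Capitals mark matches on either strand to TGANTCA (AP-1, a factor family activated by Ras signalling), to CCAAT (the CCAAT box), to TATAAA (the TATA box), to GGGCGG (the GC box), and to TTCAGCACC (left) and GGACAGCGC (right), 2 pieces of the RE1 element bound by REST, a repressor of neuronal genes. Matches can overlap, so adjoining capitals can hold more than 1.
Cntn1, chr15:92050915-92051214, plus strand: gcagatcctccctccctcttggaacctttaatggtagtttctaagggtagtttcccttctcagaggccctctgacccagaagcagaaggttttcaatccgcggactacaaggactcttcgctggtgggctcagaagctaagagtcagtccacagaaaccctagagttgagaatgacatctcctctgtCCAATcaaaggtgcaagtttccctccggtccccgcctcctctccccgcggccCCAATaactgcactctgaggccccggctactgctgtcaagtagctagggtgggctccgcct
Nlgn1, chr3:26153937-26154236, minus strand: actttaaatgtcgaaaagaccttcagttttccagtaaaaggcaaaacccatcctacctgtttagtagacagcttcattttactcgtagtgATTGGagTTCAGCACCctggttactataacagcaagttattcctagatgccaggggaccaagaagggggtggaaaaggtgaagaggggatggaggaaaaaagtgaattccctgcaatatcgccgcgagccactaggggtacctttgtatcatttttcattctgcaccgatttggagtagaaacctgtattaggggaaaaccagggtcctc
Nlgn2, chr11:69837735-69838034, minus strand: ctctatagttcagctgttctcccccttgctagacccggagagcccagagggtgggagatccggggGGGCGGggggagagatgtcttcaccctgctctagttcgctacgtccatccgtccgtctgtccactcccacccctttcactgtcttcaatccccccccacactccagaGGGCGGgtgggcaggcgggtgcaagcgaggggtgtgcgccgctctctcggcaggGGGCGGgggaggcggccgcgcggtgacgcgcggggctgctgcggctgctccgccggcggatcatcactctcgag
Tenm1, chrX:43274735-43275034, minus strand: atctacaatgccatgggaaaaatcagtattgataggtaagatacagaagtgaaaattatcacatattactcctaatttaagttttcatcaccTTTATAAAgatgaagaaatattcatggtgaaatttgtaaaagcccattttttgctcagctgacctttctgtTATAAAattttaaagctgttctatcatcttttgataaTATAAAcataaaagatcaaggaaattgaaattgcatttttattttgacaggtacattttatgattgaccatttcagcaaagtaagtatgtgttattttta
Lrfn4, chr19:4615618-4615917, minus strand: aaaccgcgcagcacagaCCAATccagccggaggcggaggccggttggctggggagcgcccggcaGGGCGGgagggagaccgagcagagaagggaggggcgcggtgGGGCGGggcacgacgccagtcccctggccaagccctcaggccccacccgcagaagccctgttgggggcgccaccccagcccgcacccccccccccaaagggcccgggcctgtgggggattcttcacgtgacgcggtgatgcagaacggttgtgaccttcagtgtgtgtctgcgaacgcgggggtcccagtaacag

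The Nlgn2 window held 26 CpG dinucleotides and 3 GC boxes, and the Lrfn4 window 25 CpG dinucleotides, 2 GC boxes and 1 CCAAT. The Tenm1 window held 0 CpG dinucleotides and 4 matches to TATAAA, some of them overlapping. The Cntn1 window had 2 CCAAT matches, and the Nlgn1 window had 1 match to CCAAT and 1 to the left piece of RE1. The Tenm1 and Nlgn1 windows shown lie inside these genes as annotated (42527866 to 43429126 and 25426215 to 26332460), away from their upstream ends. Among the 21 windows of tested genes, 7 (33.3%) held CCAAT, 5 (23.8%) the GC box, 2 (9.52%) TATAAA, 1 (4.76%) TGANTCA, 1 (4.76%) TTCAGCACC and 0 GGACAGCGC. The shares over all 32851 windows were 37.4%, 35.7%, 13.6%, 7.81%, 0.371% and 0.405%. A match describes only these letters, and which start the cells used is not known from counts per gene.

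Some of the genes that act with these molecules were lower too, where 7.72% of all genes tested were called lower and 9.97% higher. The lists below were chosen with earlier results of these data known, so their counts are a description and nothing is read from them. Among 26 tested partners (receptors, ligands and phosphatases that bind the members), 9 were called lower and 0 higher, with a median log2 fold change of -0.89. Ptprz1, a receptor phosphatase that binds contactins, went from 2.86 ± 2.28 to 0.153 ± 0.0660 CPM (log2 fold change -4.20, SE 0.77). Cbln2, a secreted ligand that bridges neurexins to glutamate receptors, Mdga2, which blocks neuroligins, and Lphn3, a latrophilin bound by teneurins and Flrt proteins, had log2 fold changes of -2.61 (SE 0.54), -2.66 (SE 0.60) and -2.70 (SE 0.71). Of 21 other tested synaptic adhesion genes 3 were called lower (Sdk1 at -3.88, Igsf9 at -2.91 and the neural cell adhesion molecule Ncam1 at -2.07) and 0 higher. Of 22 tested synaptic scaffold genes 8 were called lower and 1 higher. The lower ones included Dlg4, the scaffold protein PSD-95 (-1.93, SE 0.45), Sntb1 (-3.10, SE 0.82), Shank2 (-1.83, SE 0.51) and Magi1 (-1.35, SE 0.38), and the higher one was Dlgap4 (1.33, SE 0.43), a scaffold-associated protein. Dlgap4 had 243 CPM in Neat1 null library 1, 55.2 to 103 CPM in the other Neat1 null libraries and 37.4 to 56.8 CPM in wild-type. It was not called without Neat1 null library 1. Of these 3 lists, 0 genes were called when wild-type library 4, Neat1 null library 3, or Neat1 null libraries 1 and 3 together were left out. When wild-type library 3 was left out 1 gene was called, in the list of other adhesion genes. With the length and GC correction 4 partners, 3 other adhesion genes and 3 scaffold genes were called lower. Scaffold genes called lower numbered 2 when wild-type library 2 was left out and 3 when Neat1 null library 1 was. Other adhesion genes called lower numbered 5 when wild-type library 1, Neat1 null library 1 or Neat1 null library 4 was left out.

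Markers of other cell types moved in part with these genes, and their part in the results was not tested. The summed level of 12 neuron markers was 52.4 to 169 CPM in wild-type and 14.3 to 91.7 CPM in Neat1 null libraries. Of 7 tested, 2 were called lower, Map2 and the synaptic vesicle protein gene Syt1 (1.56, 6.29, 8.73 and 11.996 CPM against 0.180, 1.03, 0.776 and 0.784 CPM). The neuronal tubulin gene Tubb3 (1.35, 0.707, 0.280 and 0.146 CPM against 1.26, 0.938, 3.84 and 1.88 CPM) and the synaptic vesicle gene Syp had positive log2 fold changes, 1.68 (SE 0.72) and 0.47 (SE 0.64), and were not called. The neuronal marker Dcx had no read in any library, Rbfox3 had at most 0.0466 CPM and Stmn2 at most 2.73 CPM. The 10 glia and neural crest markers summed to 8.08 to 41.2 CPM and 4.13 to 7.46 CPM, most of it from Erbb3, while Olig2 and Aqp4 had no read and Sox10 at most 0.0705 CPM. Of 5 tested, 2 were called lower. Among fibroblast markers 1 of 11 tested was called lower, Pdgfra, and 1 higher, S100a4. The latter had 29.0 CPM in Neat1 null library 1, 2.71 to 4.28 CPM in the other Neat1 null libraries and 2.07 to 2.53 CPM in wild-type. Of 5 tested epithelial markers 0 were called, at a median log2 fold change of 1.50, and their sum was 194 to 633 CPM in wild-type and 249.7 to 3180.0 CPM in Neat1 null libraries, led by the keratin gene Krt18. Of 2 tested macrophage markers 1 was called lower, Cd68, with 8.88, 102, 68.2 and 92.4 CPM against 3.68, 11.2, 18.3 and 15.7 CPM. The other, Cd14, went the opposite way and was not called (log2 fold change 0.85, SE 0.37). Every Neat1 null library had more Cd14 than every wild-type library. The macrophage marker Ptprc had no read in any library. Endothelial markers summed to 4.96 to 44.2 CPM and 0.359 to 2.60 CPM (0 of 2 tested called), and muscle markers to 3.29 to 15.4 CPM and 2.87 to 16.2 CPM (0 of 1 tested called). Most of the endothelial sum in wild-type libraries 1 and 3 came from Emcn (16.7 and 39.6 CPM), which was not tested. Emcn had 0.0221 and 0 CPM in wild-type libraries 2 and 4, where Kdr led (9.25 and 4.21 CPM).

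The sex of the libraries also differed between genotypes. By Xist and 4 Y-linked genes, all wild-type libraries and Neat1 null library 3 were female and Neat1 null libraries 1, 2 and 4 were male. For the X-linked genes Slitrk4 and Tenm1 the female Neat1 null library had 0.106 and 0.0353 CPM, below every female wild-type library (lowest values 1.88 and 0.927 CPM) and within the range of the male Neat1 null libraries. These 2 values rest on 3 reads and 1 read. They come from library 3, 1 of the 2 Neat1 null libraries that stood apart, in which longer genes were under-represented. Slitrk2, the other tested X-linked member, had 0.282 CPM in that library. In the male Neat1 null libraries 1, 2 and 4 it had 0, 2.23 and 1.85 CPM, against 1.22 to 6.93 CPM in the female wild-type libraries. With sex as a covariate the log2 fold changes of Slitrk4 and Tenm1 were -5.52 and -5.96, but only 1 library separates sex from genotype in that fit. Cntnap1, Slitrk3, Tenm4 and Flrt1 were not called in it, while Flrt2 and Tenm3 were called lower and Lrfn4 higher.

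The tested members had longer exon sequence (median 6798 bases) than all genes tested (median 4462.5 bases), and longer genes were under-represented in Neat1 null libraries. Per doubling of exon length, log2 CPM relative to the gene's mean over the 8 libraries changed by 0.135 to 0.246 in wild-type libraries, by -0.314 and -0.477 in the Neat1 null libraries 1 and 3, and by 0.00732 and -0.0535 in libraries 2 and 4. After each library was corrected for exon length and GC content, 8 members were called lower and 0 higher, and the median was -1.56 beside 0.09 for all genes tested. Cntn1 and Slitrk4 then had log2 fold changes of -6.12 and -4.85, and Nlgn2 had -1.54. Tenm4 and Flrt1 were no longer called. The number of calls depended strongly on single libraries. It was 2 without wild-type library 3 (Slitrk4 and Tenm1), 2 without wild-type library 4 (Cntn1 and Slitrk4) and 0 without Neat1 null library 3 or without Neat1 null libraries 1 and 3, fits in which at most 0.135% of all genes tested were called. The fold changes of the called members kept their sign. Over the same 20 genes the median was -1.49 without Neat1 null libraries 1 and 3, and Cntn1, Slitrk4 and Nlgn2 had -6.08, -5.75 and -1.63 there. Uncalled members were less steady in that fit. Slitrk2 went from -1.71 to -0.87, Tenm3 from -0.52 to -0.13 and Lrfn4 from 0.87 to 0.097. Slitrk5 (0.21) and Lrfn3 (-0.30) changed sign, whereas Lrfn1 (-1.09) and Nrxn2 (-0.99) moved away from 0.

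**Figure D5:**
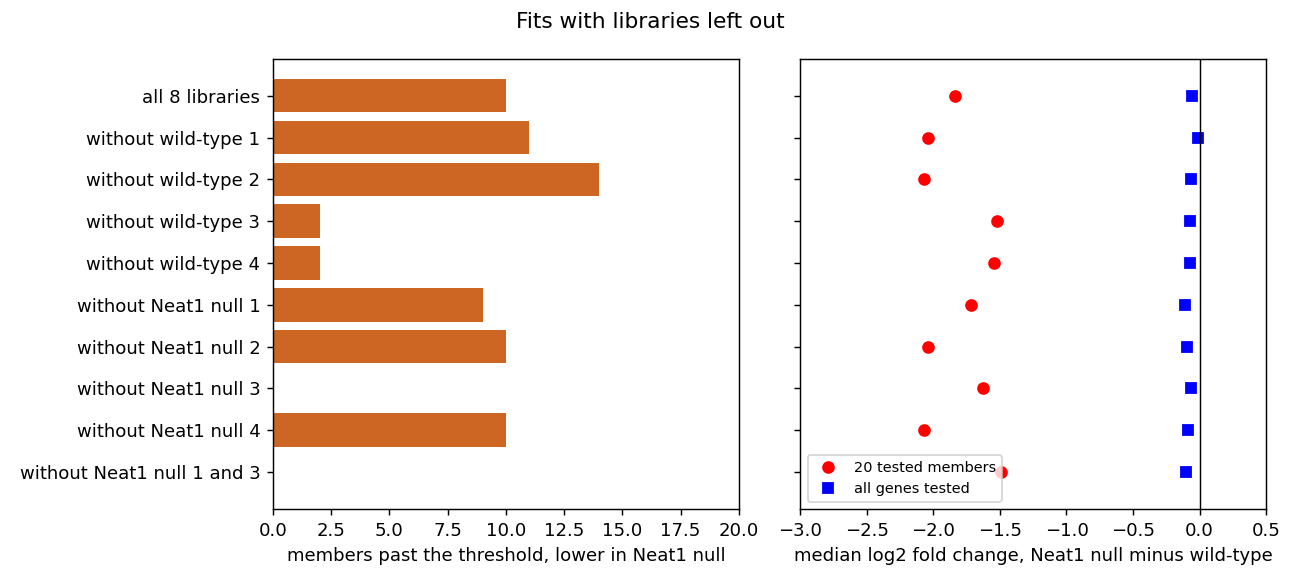
Left, number of members called lower in fits with all 8 libraries or with the named libraries left out; right, median log2 fold change of the 20 tested members (red) and of all genes tested in that fit (blue). Calls fall from 10 to 0 without Neat1 null library 3, while the median of the members stays between -1.49 and -2.07.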

How the data were processed

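The deposited tables hold unnormalized read counts by gene symbol, 1 table for each of 8 RNA-seq libraries. Per the submitters' processing notes CASAVA 1.8, STAR, DESeq2 and mm10 were used, without their roles. Per the labels a stranded TruSeq kit was used. Which program counted reads, on which annotation and with which strand setting, is not given in the sources used here. Entries for reads outside genes (5.48% to 15.7% of counts) and ambiguous reads (1.09% to 1.76%) were left out of library sizes and tests.

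The members and lists were chosen with earlier results of these data known. The values of 1 untested member are not reported here. Genes were kept with filterByExpr (minimum count 10), scaled with TMM factors and tested with edgeR 4.0.16 in R 4.3.3 (quasi-likelihood F test, robust, genotype as the only term, 2-sided, Benjamini-Hochberg over 13316 genes, threshold 0.05). SE is the fold change's size divided by the square root of F. CPM used the same factors. The fit was tested on simulated data. No 2 libraries of a genotype agreed within sampling noise (chi-square over genes divided by its degrees of freedom at least 59.3).

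Named in full were called members, the member of each family with the highest level per length, and tested X-linked members; from each list up to 4 called genes with the smallest p. Exon lengths, positions and overlaps came from GENCODE M21 (GRCm38, that is mm10). Transcript GC came from the same release. Of the symbols 21777 matched directly, 1265 by a synonym and 378 not at all. Alternatives were RLE and upper-quartile factors, no count filter, at least 1 CPM in 4 libraries, DESeq2 1.42.0, libraries left out, a replicate block, a length and GC correction (splines with 5 degrees of freedom), sex as a covariate and a threshold of 0.01.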

Additional observations from a re-analysis of the deposited data

Results flagged for a closer look

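In 34 groups of 4 libraries (Neat1 and the 16 members described in full, in each genotype), 2 held a library far from the other 3 by Dixon's criterion, where chance flags about 1 in 20 groups. Neat1 null library 4 had 0.376 CPM of Cntn1, against at most 0.0586 CPM in the other Neat1 null libraries, and without it the log2 fold change of Cntn1 was -8.93. Neat1 null library 3 had 211 CPM of Lrfn4, against at most 66.3 CPM in the other Neat1 null libraries.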

How the results depend on the processing

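The count of members called lower, 10, was 6 with at least 1 CPM in 4 libraries, 1 at a threshold of 0.01 (Slitrk4), 0 without Neat1 null libraries 1 and 3, and between 0 and 14 with each library left out in turn. It was 9 with RLE factors, 12 with upper-quartile factors or DESeq2, 14 of 36 tested without a count filter and 8 with the length and GC correction (all among the 10). With sex as a covariate it was also 8, of which 6 were among the 10: Cntnap1, Slitrk3, Tenm4 and Flrt1 were no longer called, and Flrt2 and Tenm3 were added. The count called higher was 0 in all of these fits except that with sex as a covariate, where it was 1 (Lrfn4, log2 fold change 1.97). The median log2 fold change of the tested members was -2.93 with sex as a covariate and between -1.52 and -2.27 with each library left out. Neat1 had -6.34 without Neat1 null libraries 1 and 3 and was not called there. Over all genes, 2356 were called, against 18 and 11 when wild-type library 3 or 4 was omitted, 13 when Neat1 null library 3 was omitted, 7 when Neat1 null libraries 1 and 3 were omitted and 7 at a threshold of 0.01. Of all genes, 1028 were called lower, against 651 with the length and GC correction and 1595 with sex as a covariate, and 1328 were called higher, against 845 when wild-type library 2 was omitted. Upper-quartile factors moved the median of all genes from -0.06 to -0.24 and called 10.7% of them lower. Of the 10 called members, 0 changed sign in any fit that tested them. Of the 10 uncalled tested members, 4 changed sign in at least 1 fit. Slitrk5 had 0.25 without wild-type library 3 and 0.21 without Neat1 null libraries 1 and 3 (range with 1 library left out -0.49 to 0.25), and Nrxn2 had 0.013 without wild-type library 4 (range -1.15 to 0.013), 0.061 with the length and GC correction and 0.713 with sex as a covariate. Lrfn3 had -0.032 without Neat1 null library 3 (range with 1 library left out -0.032 to 0.60), -0.30 without Neat1 null libraries 1 and 3 and -0.11 with the length and GC correction, and Lrfn1 had 0.711 with sex as a covariate.

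With the replicate number as a block, 10 members were called lower and 0 higher, 9 of them among the 10 above. The deviations of same-numbered libraries had correlations across genes of 0.317, -0.258, -0.0140 and 0.107 for numbers 1 to 4. Those of differently numbered libraries ranged from -0.278 to 0.365. These values gave no sign of a pairing by number, but 4 of them cannot show whether same-numbered libraries shared an origin or preparation. The 21 members below the count filter were not tested in the main fit, and those reported are described by counts and bounds. Without the filter 36 members were tested, and some of these 21 were among the 14 called lower there, on few reads.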

Other observations

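The order of the wild-type libraries by Neat1 level (138, 588, 753 and 1319 CPM) was also the order of 9 of the 20 tested members (45%): Cntn1, Cntnap2, Flrt1, Lrfn1, Nrxn2, Slitrk2, Slitrk3, Slitrk4 and Tenm1. Of all other genes tested, 7.25% had this order and 8.60% the opposite one, and 0 members had the opposite one. This was noticed after the values were seen, 4 libraries allow no correlation, and the libraries share other differences.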
